A study of Mus musculus with 12 samples.

Results

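The cytosolic ribosomal proteins were taken as all probes whose gene name, or current symbol of the probe's accession, began with Rpl or Rps and a digit or was Rpsa, Rplp0, Rplp1 or Rplp2. The ribosomal S6 kinases, the Rps19 binding protein genes and entries named as pseudogenes were left out. The rule found 84 genes on 142 probes, of 27666 genes on 41174 probes of the array. The data came from a microarray study of the uterus 2 h after an injection of estradiol (E2), in mice with normal estrogen receptor alpha (Esr1 genotype WT) and in EAAE mice, whose receptor is described in the title of the study as deficient in DNA binding. Mice of either genotype received saline or E2, which makes 4 groups of 3 mice, with 1 uterus per array. All 12 mice were adult females of 10 or more weeks on the C57bl6/Jx129 background. All had been ovariectomized, rested for 10 to 14 days, and given 100 ul of saline or of E2, whose dose is not stated in the labels. How the EAAE allele is carried, and the residues it changes, are not given in the labels either.

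A cytosolic ribosome is built from ribosomal RNA and one copy of most ribosomal proteins, those named Rpl in the large subunit and those named Rps in the small subunit. The proteins are imported into the nucleus, handed over by dedicated chaperones and assembled on precursor RNA in the nucleolus with the help of many biogenesis factors. In the rodent uterus E2 is known to raise RNA and protein synthesis within hours, ahead of growth. Most ribosomal protein mRNAs are abundant and long-lived and start at a C followed by a run of pyrimidines, the terminal oligopyrimidine motif, through which mTOR and Larp1 control how actively these mRNAs are translated. An mRNA level, as measured here, therefore does not give the rate at which the proteins were made.

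The start sites of several members are shown because they carry this pyrimidine stretch, by which the family is known. Each window runs from 15 bases before to 15 bases after the annotated RefSeq start on GRCm38.p6, with every CTTTC and CTTCC in capitals.
Rpl35: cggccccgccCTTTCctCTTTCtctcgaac
Rps27: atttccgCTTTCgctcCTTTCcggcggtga
Rps15a: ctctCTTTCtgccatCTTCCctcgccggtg
Rps18: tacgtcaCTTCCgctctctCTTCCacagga
Rpl7l1: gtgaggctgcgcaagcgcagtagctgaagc
These windows lie on the minus strand at chr2:39005117-39005146 for Rpl35, chr3:90213634-90213663 for Rps27, chr7:118116133-118116162 for Rps15a, chr17:33955651-33955680 for Rps18 and chr17:46782642-46782671 for Rpl7l1. The last, a paralog of Rpl7, is shown beside the others because it holds neither motif in this window and was the member with the largest response to E2. The lack is not particular to Rpl7l1, since only 25 of 63 matched members hold either motif within 15 bases of the start. Rpl5, Rpl9 and Rpl19 also hold neither, and a link between motif and response was not tested. Start sequences were matched for 63 of the 84 genes. CTTTC on the transcribed strand within 50 bases of the start was found in 52.4% of these genes (33 of 63) and in 14.6% of 27025 mouse genes with such a sequence. On the other strand the shares were 14.3% and 13.8%. CTTTC or CTTCC within 15 bases of the start, motifs that can share a C, occurred in 39.7% of the members and 12.1% of all genes on the transcribed strand. On the other strand these shares were 17.5% and 12.2%. The palindromic estrogen response element (GGTCA, any 3 bases, TGACC) was matched in 0 of 63 members and in 0.074% of all genes, over 250 bases before to 50 bases after the start. The E-box CACGTG, the letters bound by Myc, was matched in 9.52% of members and 8.09% of all genes over that window. Both of these motifs read the same on either strand. All the motifs were chosen after the sequences had been looked at, and a match describes letters and not a bound site.

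The array is a 1-colour Agilent design with 60-base probes. A level is given here as the log2 of the background-subtracted signal relative to the 75th percentile of the same array, so that 0 is the 75th percentile and a difference of 1 is a factor of 2. The 75th percentile lay between 1398.0 and 1941.8 intensity units, and between 63.98% and 74.03% of probes per array were well above background. The 3 arrays per group limit the precision of every value. Each of the 12 uterine markers examined was above background in the tissue. Esr1 itself stood 0.41 higher in EAAE saline than in WT saline (adjusted p = 0.00943) and 0.43 higher after E2 (adjusted p = 0.00305), both by its brightest probe, and differed by -0.03 after E2 with its probes averaged. A level of Esr1 does not check a change in its coding sequence. The arrays sat on 3 slides of 4 positions, and all EAAE E2 arrays were at position 4, so position and group cannot be fully told apart. Slides were also uneven under saline. Slide 2 held EAAE saline replicates 1 and 3 and no WT saline array. Slide 3 held WT saline replicates 2 and 3 and no EAAE saline array. Because each sample is a whole uterus, fewer cells of a type and less RNA per cell cannot be told apart.

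Of the 142 member probes, 138 on 83 genes passed the filter on dim probes, and 136 were well above background on all 12 arrays. Rpl39l, a paralog of Rpl39 best known from testis, had 2 probes that were not well above background on any array. One probe per gene, the one with the highest mean level, was used for comparisons by gene. There was 1 tested probe for 41 genes and several for 42. Rplp1 was saturated on 2 arrays and Rps23 on 4. Ribosomal protein genes have many processed pseudogenes, and how far the probes also bind such copies was not tested. Some probes are placed by the array annotation on another chromosome than the brightest probe of their gene. A cDNA or EST probe of Rplp0 is placed on chr8 against chr5, and a probe of Rpl34 on chr6 against chr3.

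Within a group the members varied little between mice. Their median SD within groups was 0.107, against 0.168 for the 19301 genes tested. The 2 sets were not matched for level, and the median level of the members was 6.73 to 7.11 per array, far above the 75th percentile. The median of the family also moved from mouse to mouse, with a pooled SD of 0.080 within groups. The median deviation of the 83 members from their own 12-array means was 0.050, 0.006 and 0.197 in the WT saline arrays and -0.075, -0.157 and -0.071 in the WT E2 arrays. It was -0.087, 0.046 and -0.095 in EAAE saline and -0.028, 0.139 and 0.074 in EAAE E2. The 3 WT E2 arrays were below all 3 WT saline arrays, and the 2 EAAE groups overlapped. The same held for the median deviation of all genes tested, so this order was not particular to the family. That median was -0.013, 0.006 and 0.051 in the WT saline arrays and -0.040, -0.116 and -0.087 in the WT E2 arrays. The group means were 0.085 ± 0.100 in WT saline, -0.101 ± 0.048 in WT E2, -0.045 ± 0.079 in EAAE saline and 0.062 ± 0.084 in EAAE E2 (SD, n = 3). Rpl12, at the base of the stalk of the large subunit, followed the median profile most closely over the 12 arrays, with an SD of 0.041 around it, and was followed by Rpl19 and Rps16. The paralogs Rpl3l, Rpl7l1 and Rps4l departed from it most, with SDs of 0.65, 0.56 and 0.31.

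**Figure D1:**
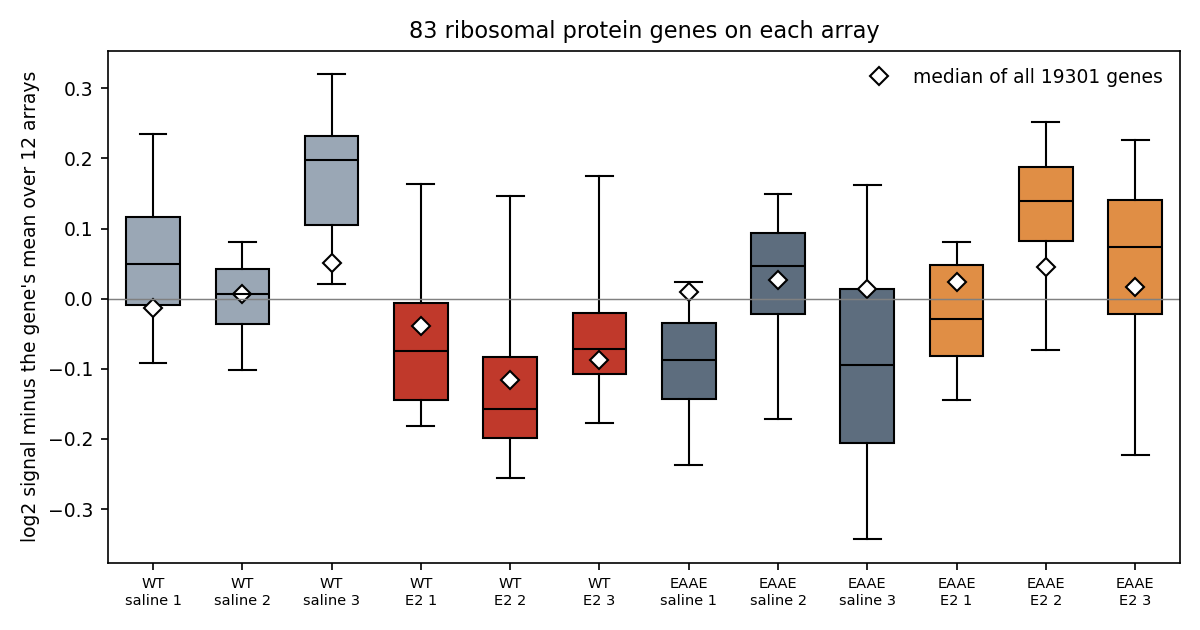
Deviation of each of the 83 ribosomal protein genes from its own mean over 12 arrays (log2), drawn as one box per array with whiskers at the 5th and 95th percentiles and a diamond for the median of all genes tested. The member medians of the 3 WT E2 arrays, between -0.157 and -0.071, lie below those of the 3 WT saline arrays, between 0.006 and 0.197. The diamonds of these groups are also apart, between -0.116 and -0.040 in WT E2 and between -0.013 and 0.051 in WT saline.

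The first comparison asked how E2 changed the family in WT uterus within 2 h. On this scale 2 members rose and 14 fell at an adjusted p under 0.05, which was 19.3% of the 83, while 49.4% of all genes tested changed (19.6% rose and 29.8% fell). The median member difference was -0.18, a 1.13-fold fall, beside -0.15 for all genes. The falls were shared between the subunits, with 10 of 50 large-subunit genes and 4 of 33 small-subunit genes lower. All 14 belonged to the 77 canonical proteins, of which none rose. In 54 members (65.1%) the 3 WT E2 arrays lay below the 3 WT saline arrays and in 4 (4.8%) above them, against 39.7% and 24.8% of all genes.

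Rpl7l1 was the member that rose most. Its level was 1.58, 1.70 and 1.60 in WT saline and 2.52, 2.67 and 2.66 in WT E2. In EAAE saline it was 1.56, 1.41 and 1.42, and in EAAE E2 it was 1.40, 1.51 and 1.62. All 3 WT E2 arrays stood above the other 9, and the EAAE groups overlapped. The WT difference was 0.99 (SE 0.086, adjusted p = 9.03e-06), a 1.99-fold rise that passed the threshold in all 26 alternative analyses. A second probe of the gene rose by 0.67 (adjusted p = 0.00167).

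Rps4l, a relative of Rps4x that RefSeq lists as a transcribed pseudogene, was the other member called higher. Its level was 1.42, 1.64 and 1.78 in WT saline and 2.22, 2.04 and 1.95 in WT E2, which do not overlap. In the EAAE groups it was 1.98, 2.35 and 2.00 after saline and 2.15, 1.87 and 2.25 after E2, levels that overlapped those of WT E2 in both groups. The WT difference of 0.46 (SE 0.14, adjusted p = 0.0232) lost its call under quantile normalization (adjusted p = 0.0561). It was also lost without WT saline replicate 1 (0.0882), WT E2 replicate 1 (0.0821) or WT E2 replicate 2 (0.0517).

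The falls among the canonical proteins were small and alike in size. Rpl36a, which lies near the exit site for tRNA, was at 6.77, 6.59 and 6.86 in WT saline and at 6.43, 6.28 and 6.43 in WT E2. This was the largest fall, -0.36 (SE 0.097, adjusted p = 0.0106), or 1.28-fold, and the groups did not overlap. Rpl17, at the mouth of the peptide exit tunnel, was at 6.71, 6.65 and 6.82 in WT saline and 6.48, 6.35 and 6.45 in WT E2. Its difference of -0.30 (SE 0.078) had the lowest adjusted p of the falls, 0.00935. In EAAE uterus Rpl36a was at 6.36, 6.54 and 6.47 after saline and at 6.39, 6.58 and 6.56 after E2, overlapping groups. Rps15a of the small subunit (-0.28, adjusted p = 0.0143), Rpl31 (-0.33, 0.0198), Rpl9 (-0.24, 0.0208) and Rpl22 (-0.30, 0.0214) of the large subunit also fell. Rpl3, Rpl6, Rpl13a, Rpl27a, Rpl34, Rps9 and Rps24 were among the others. The 67 members that did not pass lay between -0.30 (Rpl39) and 0.25 (Rpl21).

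These falls depended on the reference level of the arrays. With each array centred on its median instead of its 75th percentile, the median of all genes moved from -0.15 to -0.01 and that of the members from -0.18 to -0.04. Then 3 members rose (Rpl7l1, Rps4l and Rpl36al) and 0 fell, while all genes went from 3775 higher and 5752 lower to 4494 and 3948. That centring adds 1 constant to every gene of an array, so the members stay 0.03 below all genes by construction. The gap between both medians, members minus all genes, was 0.01 under quantile normalization, -0.14 without the filter on dim probes and -0.07 with slide and position. With slide and position as terms 2 fell, Rpl13a and Rps9. The number of falls was 4 without WT saline replicate 1, 4 without WT saline replicate 3, 5 without WT E2 replicate 1, 2 without WT E2 replicate 2 and 8 without WT E2 replicate 3. Rpl17 and Rpl36a kept their calls with any array left out, and lost them with array-median centring (-0.16 and -0.23) and with slide and position, where the differences were -0.34 and -0.44. Markers of other cell types also moved between these groups. All 7 adipocyte markers were lower in WT E2, with a median of -3.46 and a summed linear level of 1.35 to 13.2 against 16.1 to 118.8 in WT saline, Lep not being above background in WT E2. Macrophage markers, 3 of 8 lower, summed to 63.0 to 79.6 against 100.9 to 158.3, and endothelial markers, 5 of 7 lower, to 18.5 to 19.4 against 29.1 to 34.2. The part of these cells in the member differences was not tested.

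By role, the stalk proteins Rplp0, Rplp1 and Rplp2, which recruit elongation factors, and Rpsa, also known as a laminin receptor, held 0 of 4 changed genes in WT, and 0 of 4 at an unadjusted p under 0.05 by limma. Rplp0 was at 8.07, 8.12 and 8.26 in WT saline and at 8.27, 8.11 and 8.09 in WT E2, overlapping groups with a difference of 0.01. Rpl5 and Rpl11, which carry 5S RNA into the ribosome and bind Mdm2 when assembly fails, and Rpl23, which also binds Mdm2, held 0 of 3, with 1 lower at the unadjusted p. Of 10 members in which mutations cause Diamond-Blackfan anaemia, Rps24 alone passed, by -0.25 (adjusted p = 0.0386), while 29.8% of all genes fell. Among other settings it lost the call with any single WT array left out (adjusted p = 0.0564 to 0.125), and under array-median (-0.12) and quantile (-0.13) scaling, and with its probes averaged the difference was 0.50. Of 7 members often used as reference genes in quantitative PCR, Rpl13a fell by 0.34 on the log2 scale (adjusted p = 0.0365) and the others did not pass.

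The same question in EAAE uterus gave no called member. limma called 0 of 83 higher and 0 lower, and 1 member (1.2%) was higher at an unadjusted p under 0.05, against 16.0% of all genes in either direction. The share of all genes called was 1.44% (0.684% higher and 0.751% lower). The median member difference was 0.10, beside 0.02 for all genes. Under quantile normalization these medians were 0.018 and 0.016. In 5 members (6.0%) the EAAE E2 arrays all lay above the EAAE saline arrays and in none below, against 9.64% and 8.88% of all genes. The lowest p-values were those of the large-subunit genes Rpl32 (0.21, adjusted p = 0.287), Rpl19 (0.16, 0.333) and Rpl35 (0.23, 0.345). In EAAE mice Rpl19 was at 6.91 ± 0.084 after saline and 7.08 ± 0.042 after E2 (SD, n = 3), without overlap. Rpl7l1 differed by 0.05 (adjusted p = 0.839), Rpl36a by 0.06 (0.818) and Rpl17 by 0.11 (0.499). Rps6, the substrate of the S6 kinases, differed by 0.04 (0.836) in EAAE and by -0.19 (0.061) in WT. No alternative analysis called a member in this comparison.

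**Figure D2:**
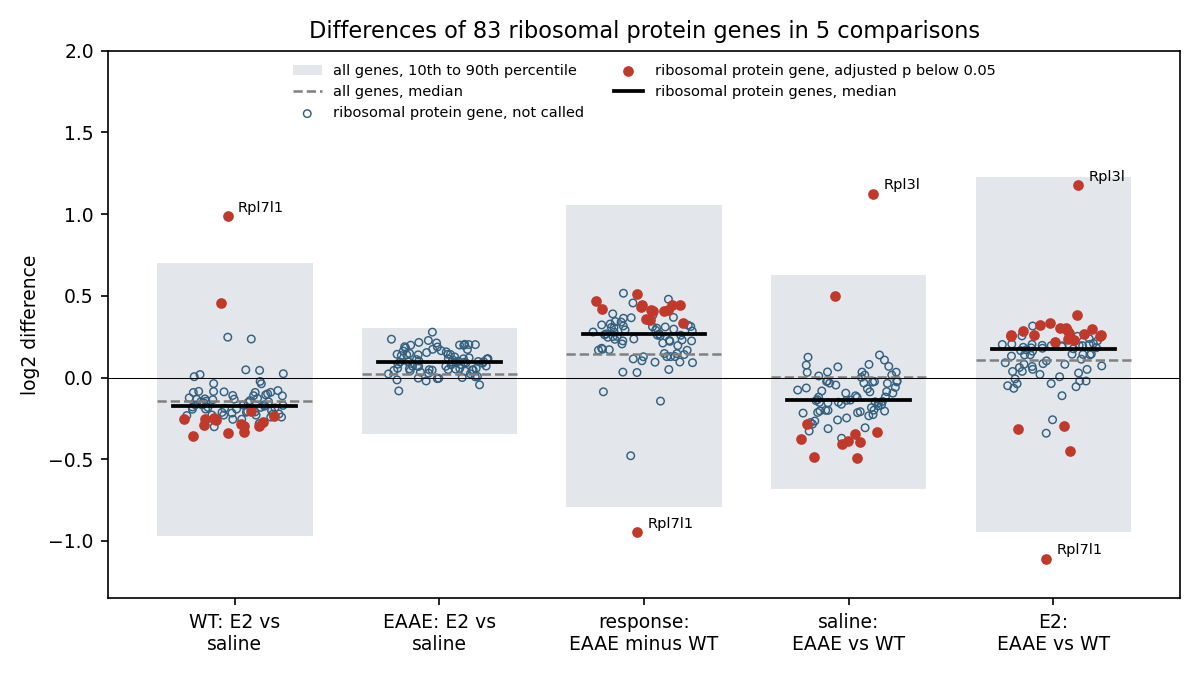
Differences of the 83 ribosomal protein genes on the log2 scale in 5 comparisons, one point per gene, with a grey band from the 10th to the 90th percentile of all genes tested. Most members lie inside the band in each comparison, and the labelled points are Rpl7l1 at 0.99 in WT after E2, -0.94 in the difference in response and -1.11 between genotypes after E2, and Rpl3l at 1.13 and 1.18 between genotypes.

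Whether the response to E2 differed between genotypes was tested directly, as the EAAE difference minus the WT difference, which uses the arrays of both comparisons above again. Here 14 members were higher and 1 lower, 18.1% of the 83 against 37.3% of all genes (22.2% higher and 15.0% lower). The lower one was Rpl7l1, at -0.94 (SE 0.12, adjusted p = 0.000256), which passed in all 25 alternatives. Each of the 14 higher ones had a difference below 0 in WT, where 7 of them had passed the test, and above 0 in EAAE. Rpl17 differed by 0.41 (SE 0.11, adjusted p = 0.0146), with EAAE levels of 6.70 ± 0.019 after saline and 6.81 ± 0.083 after E2 (SD, n = 3).

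Rpl32 was at 7.08, 7.04 and 7.27 in WT saline and 6.90, 6.87 and 6.95 in WT E2. In EAAE it was at 6.98, 7.16 and 6.96 after saline and 7.15, 7.30 and 7.28 after E2. The WT groups did not overlap and the EAAE groups did, and the responses differed by 0.43 (SE 0.13, adjusted p = 0.0245). The other higher members were Rpl9, Rpl13a, Rpl19, Rpl22, Rpl26, Rpl34, Rpl35, Rpl36a, Rps10, Rps15a, Rps21 and Rps25, at 0.34 to 0.51. The median member difference was 0.27 beside 0.15 for all genes. Adipocyte markers had a median of 3.32 in this test, with 7 of 7 above 0 and 1 called higher. Macrophage markers had a median of 1.33, with 2 of 8 called higher, and of the endothelial markers 4 of 7 were higher. Their part in the member differences was not tested.

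With array-median centring 0 members stayed higher and Rpl7l1 stayed lower, while the split of all genes went from 4293 higher and 2897 lower to 3170 and 3065. Under quantile normalization 8 were higher and the member median fell to 0.11, 0.01 below that of all genes. The number of higher members was 5 without WT saline replicate 1, 1 without WT saline replicate 3, 2 without WT E2 replicate 1, 1 without WT E2 replicate 2 and 7 without WT E2 replicate 3. It was 2 without EAAE saline replicate 1, 22 without EAAE saline replicate 2, 2 without EAAE saline replicate 3 and 2 without EAAE E2 replicate 2.

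The genotypes were next compared without E2. In EAAE saline 2 members were higher and 9 lower than in WT saline, 13.3% of the 83 against 29.6% of all genes (14.5% higher and 15.1% lower). Slide and genotype cannot be fully told apart here, and with the slide as a block 2 were higher and 5 lower. The median member difference was -0.14, beside 0.00 for all genes. In 22 members (26.5%) the EAAE arrays all lay below the WT arrays and in 3 (3.6%) above, against 23.5% and 23.4% of all genes. Rpl3l, the paralog of Rpl3 known from striated muscle, was at -4.28, -4.55 and -4.90 in WT saline and -3.24, -3.61 and -3.49 in EAAE saline. It stood 1.13 higher (SE 0.21, adjusted p = 0.00274), or 2.18-fold, without overlap, though at a level far below the 75th percentile in both genotypes. Rps4l stood 0.50 higher (SE 0.14, adjusted p = 0.0259). Its call was lost with slide and position, where the difference was 0.86 (adjusted p = 0.204), and without WT saline replicate 1 (0.099), WT saline replicate 2 (0.0555) or EAAE saline replicate 2 (0.0849).

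Rpl15, which is needed to form the large subunit, had the lowest adjusted p of the lower members. It was at 5.92, 5.80 and 6.09 in WT saline and 5.43, 5.58 and 5.34 in EAAE saline, a difference of -0.49 (SE 0.095, adjusted p = 0.00386) without overlap. Rps27l, a paralog of Rps27 known as a target of p53, was at 4.80, 4.60 and 4.78 in WT saline and 4.38, 4.35 and 4.27 in EAAE saline. That difference was -0.39 (SE 0.079, adjusted p = 0.00443), again without overlap. Rpl31 (-0.49, adjusted p = 0.005), Rps15a (-0.35, 0.00931), Rpsa (-0.39, 0.0181) and Rpl13a (-0.41, 0.0256) were also lower, as were Rpl34, Rpl35 and Rpl36a. With slide and position as terms Rpl3l was still called (adjusted p = 0.0174) and 0 of the 9 lower members were. Their differences in that fit were larger in size for Rpl15 (-0.68), Rpl13a (-0.77) and Rps27l (-0.51) and smaller for Rps15a (-0.34) and Rpsa (-0.23), and the member median was -0.22. The number of lower members was 4 without WT saline replicate 1, 5 without WT saline replicate 3, 5 without EAAE saline replicate 1 and 4 without EAAE saline replicate 3. Macrophage markers summed to 32.6 to 47.6 in EAAE saline, below the WT saline range, with 1 of 8 higher and 2 lower. Lymphocyte markers summed to 1.35 to 1.45 against 1.97 to 2.53, with 2 of 8 lower. Endothelial markers summed to 24.9 to 27.6, also below the WT saline range, with 2 of 7 lower, and 5 of 12 uterus markers were higher. The part of these cells in the differences was not tested.

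After E2, 19 members were higher and 4 lower in EAAE than in WT uterus, 27.7% of the 83 against 58.0% of all genes (33.5% higher and 24.5% lower). The median member difference was 0.18 beside 0.11 for all genes. It stood below that of all genes under quantile normalization (0.053 against 0.07) and with slide and position (0.056 against 0.10). The EAAE arrays all lay above the WT arrays in 33 members (39.8%) and below in 5 (6.0%), against 37.1% and 27.2% of all genes. Rpl3l was again higher, by 1.18 (SE 0.21, adjusted p = 0.000664), with -4.15, -4.93 and -4.52 in WT E2 and -3.42, -3.19 and -3.45 in EAAE E2. The other 18 were canonical proteins at 0.22 to 0.38, led by Rpl17 (0.38, adjusted p = 0.00164) and Rpl9 (0.30, 0.00498), with Rpl37a, Rpl6 and Rpl32 next at 0.29, 0.27 and 0.33.

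Of the 4 lower members, 3 were paralogs. Rpl7l1 was lower by -1.11 (SE 0.086, adjusted p = 2.26e-06). Rpl36al, a paralog of Rpl36a, was at 3.27, 3.40 and 3.39 in WT E2 and 3.07, 2.97 and 2.66 in EAAE E2, a difference of -0.45 (SE 0.12, adjusted p = 0.0101). Rps27l (-0.30, adjusted p = 0.00787) and Rpl15 (-0.32, 0.0154) were lower here as they had been after saline, in a comparison that shares no array with that one. Rpl15 was at 5.92, 6.02 and 5.92 in WT E2 and 5.60, 5.72 and 5.59 in EAAE E2, and lost its call without WT E2 replicate 2 (adjusted p = 0.0575). With slide and position as terms, Rpl3l and Rpl7l1 were the only members called, and with array-median centring 2 were higher and 6 lower. The number of higher members ranged with the array left out. It was 11 without WT E2 replicate 1, 7 without WT E2 replicate 2 and 12 without WT E2 replicate 3. It was 29 without EAAE E2 replicate 1, 8 without EAAE E2 replicate 2 and 12 without EAAE E2 replicate 3. All 7 adipocyte markers were higher in EAAE E2, with a median of 3.70 and a summed level of 33.0 to 156.0. Macrophage markers, 2 of 8 higher, summed to 34.9 to 123.3, a range that spans that of WT E2. Endothelial markers, 2 of 7 higher, summed to 27.8 to 31.9, above WT E2, and of 12 uterus markers 8 were higher and 2 lower. Their part in the member differences was not tested.

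**Figure D3:**
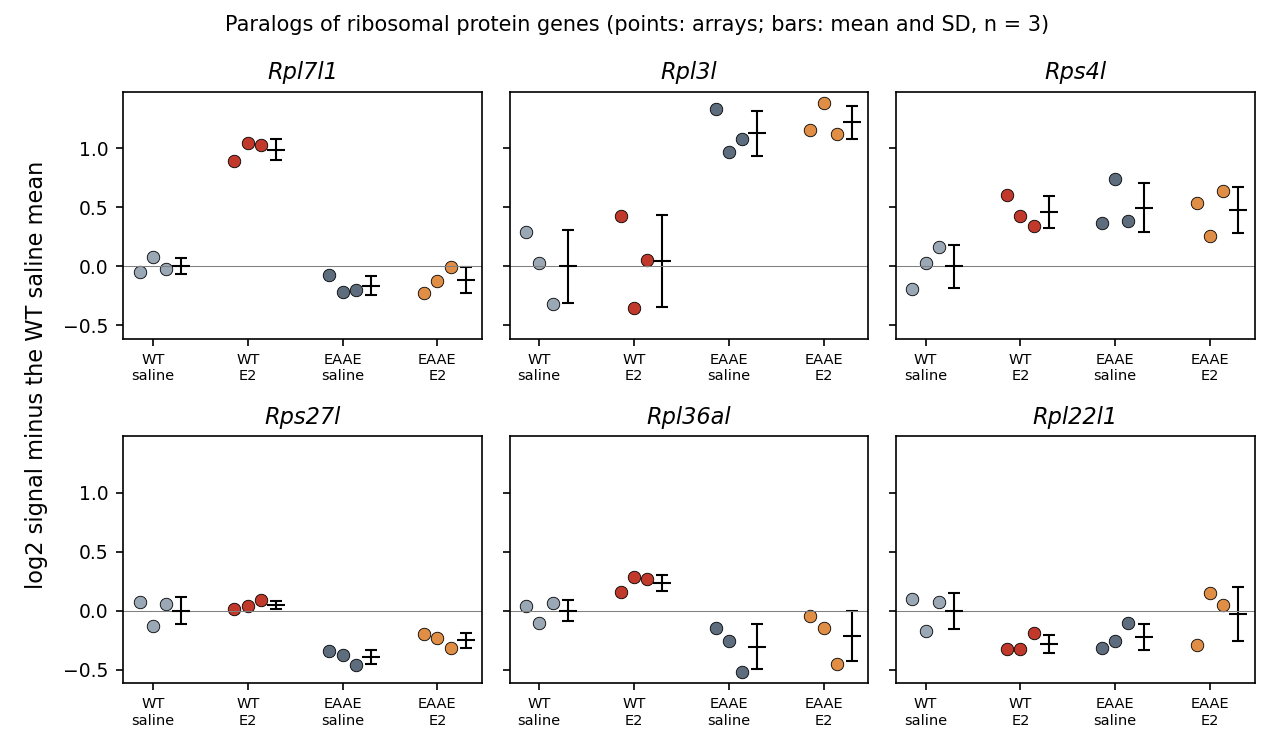
Levels of the 6 tested ribosomal protein paralogs as log2 differences from their own WT saline mean, one point per mouse, with the group mean and SD. Rpl7l1 rises by 0.99 in WT E2, Rpl3l is higher in EAAE than in WT of the same treatment, by 1.13 after saline and 1.18 after E2, and Rps27l is lower in EAAE, at -0.39 and -0.30.

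The genes with several probes gave a second view of the family. Probes designed on RefSeq transcripts and those designed on cDNA or EST records differed, a division made after the values were seen. Of 119 tested member probes on RefSeq records 4 rose and 22 fell in WT after E2. Of 19 on cDNA or EST records 9 rose (47.4%) and 0 fell by limma, with 0 lower at an unadjusted p under 0.05, while 18.3% of all cDNA or EST probes rose and 33.6% fell. Over all probes 21.1% rose and 27.5% fell. Of 18 member genes with both kinds of probe, 8 (44.4%) had a cDNA or EST probe that rose and no RefSeq probe that did, against 210 of 2578 genes in all (8.15%). One of these probes, of Rpl35a, passed the filter on dim probes through WT E2 alone. Among probes above background on all 12 arrays, 8 of 17 member cDNA or EST probes rose (47.1%) against 21.2% of all such probes, and 7 of 16 member genes (43.8%) had this pattern against 8.56% of all genes.

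Together with a RefSeq-named probe of Rps15a, 10 second probes of 9 genes rose, by 1.64-fold to 3.07-fold, while the brightest probe of the same gene did not. They are shown with the brightest probe for 4 genes because the letters differ while the gene name is one. The coordinates are those of the array's mm7 annotation and every sequence is in the orientation of the probe. No letters are capitalised.
Rpl11 brightest probe: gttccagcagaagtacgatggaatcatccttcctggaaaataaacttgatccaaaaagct
Rpl11 second probe: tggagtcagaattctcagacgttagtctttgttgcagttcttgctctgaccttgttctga
Rpl13 brightest probe: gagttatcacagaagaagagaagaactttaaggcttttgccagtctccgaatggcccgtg
Rpl13 second probe: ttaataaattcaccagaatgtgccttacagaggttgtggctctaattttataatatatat
Rps12 brightest probe: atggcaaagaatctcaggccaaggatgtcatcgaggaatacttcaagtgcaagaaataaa
Rps12 second probe: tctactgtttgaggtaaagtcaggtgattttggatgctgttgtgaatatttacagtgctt
Rpl35a brightest probe: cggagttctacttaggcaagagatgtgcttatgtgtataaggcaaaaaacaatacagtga
Rpl35a second probe: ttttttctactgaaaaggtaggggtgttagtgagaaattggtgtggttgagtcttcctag
The brightest Rpl11 probe spans chr4:135428407-135428729 on the minus strand, far more than its 60 bases, so that it joins separate blocks of the genome. The second Rpl11 probe lies in 1 block at chr4:135428479-135428538 on the same strand, inside that gap. The same held for Rpl35a on the plus strand, with the brightest probe over chr16:32732018-32733213 and the second inside its gap at chr16:32732112-32732171. For Rpl13 on the plus strand the probes lay at chr8:121746761-121746820 and chr8:121746485-121746544. For Rps12 on the minus strand they lay at chr10:23538288-23538347 and chr10:23539315-23539374. All 10 second probes were on the strand of the brightest probe and 9 of them spanned exactly their own 60 bases, that of Rps13 spanning 64. Whether a probe lies in an exon or an intron was not looked up, since no annotation of that build was used here.

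The second Rps12 probe showed the largest rise. Its level was -1.80, -2.02 and -2.33 in WT saline and -0.48, -0.40 and -0.42 in WT E2, against -2.30, -2.46 and -2.21 in EAAE saline and -2.25, -1.97 and -2.76 in EAAE E2. The 3 WT E2 arrays stood above all others, by a WT difference of 1.62 (SE 0.19, adjusted p = 6.17e-05). The brightest Rps12 probe was at 7.81, 7.81 and 7.94 in WT saline and 7.81, 7.70 and 7.78 in WT E2, overlapping, with a difference of -0.09 (adjusted p = 0.398).

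The second Rpl13 probe was at -0.85 ± 0.13 in WT saline and 0.71 ± 0.084 in WT E2 (SD, n = 3), a difference of 1.56 (SE 0.11, adjusted p = 1.89e-06). The second Rpl11 probe was at -0.17, 0.09 and 0.15 in WT saline and 1.48, 1.48 and 1.42 in WT E2, a difference of 1.43 (SE 0.10, adjusted p = 2.42e-06). Neither pair of groups overlapped, while the brightest probes of Rpl13 and Rpl11 differed by -0.09 (adjusted p = 0.401) and -0.11 (0.365). The others that rose belonged to Rps13 (1.41), Rpl27a (1.07), Rps18 (1.06), Rps24 (0.97 and 0.79) and Rps15a (0.71).

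The Rps15a probe is a RefSeq-named one that lies 9974 bases from the brightest, and the Rps13 probe lies 12 bases from its partner. The second Rpl35a probe, 1.16 higher in WT E2, was above background on all 3 WT E2 arrays, on 1 array of each saline group and on none of EAAE E2, where it was at least 1.9-fold lower than in WT E2. For Rpl27a, Rps15a and Rps24 the brightest probe fell while another rose. Apart from that of Rpl35a, the 8 other cDNA or EST probes rose in every alternative run by probe, and the Rps15a probe lost its call with slide and position.

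In EAAE uterus none of the 19 cDNA or EST member probes changed after E2 by limma, and of the 138 member probes of both kinds 0 passed and 3 were higher at an unadjusted p under 0.05. Of all probes 0.607% rose and 0.851% fell in EAAE. The response differed between genotypes for the 9 second probes other than that of Rpl35a, by -0.72 to -1.62. Of all probes 19.5% were higher and 16.9% lower in this test. The 9 had been picked because they rose in WT, and the test uses the same WT arrays. Values below 0 were therefore favoured by the choice, and all probes are not a like reference. After E2, 10 of the 19 cDNA or EST probes were lower in EAAE than in WT and 1 higher, against 26.5% and 31.1% of all probes. That comparison again uses the WT E2 arrays, in which this kind of probe had been seen to rise. After saline 1 of the 19 probes was lower and 0 higher by limma, with 3 and 0 at an unadjusted p under 0.05. By limma 8.79% of all cDNA or EST probes were lower after saline and 20.1% higher. Not every cDNA or EST probe moved. Those of Rpl10, Rplp0, Rps4x, Rps19, Rps20, Rps21 and Rps28 were among those that did not pass in WT, as were those of Rps6 (0.37, adjusted p = 0.112), and Rpl22l1, a paralog of Rpl22 (0.90, 0.0998).

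**Figure D4:**
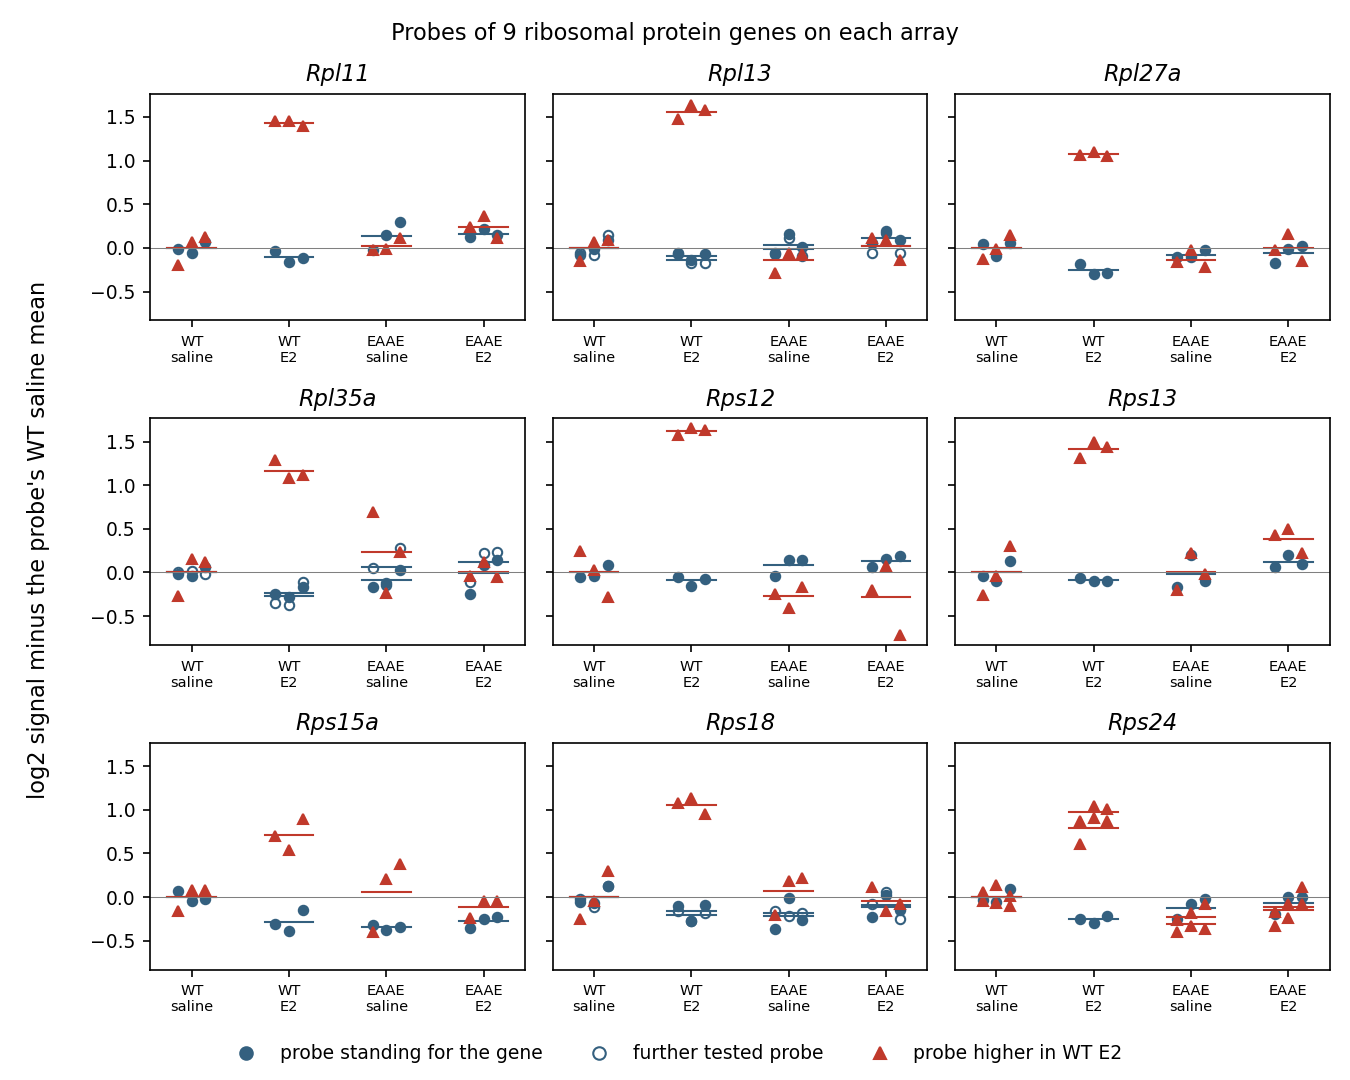
Log2 level of each probe minus its own WT saline mean for the 9 genes with a second probe that rose in WT after E2, one point per array and group. The second probes (triangles) rise by 0.71 to 1.62 in WT E2 and lie closer to 0 in both EAAE groups, and the brightest probes (filled circles) lie at or below 0 in WT E2.

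Other genes of ribosome production were examined beside the members. For reference, 19.6% of all genes rose and 29.8% fell in WT after E2. Of 91 biogenesis factors, which process ribosomal RNA and assemble the subunits, 75 rose and 1 fell in WT after E2, with a median of 0.81, and 80 rose and 0 fell with array-median centring. They included Nolc1, a nucleolar scaffold for small nucleolar RNPs (1.96, adjusted p = 5.59e-08), and Bysl, needed for the small subunit (1.86, 2.32e-07). Of 9 chaperones and carriers of ribosomal proteins 6 rose, among them Grwd1, which binds Rpl3 (1.75, 2.35e-07), and Rrs1 (2.02, 9.09e-07) and Rpf2 (0.95, 2.43e-05), which place Rpl5, Rpl11 and 5S RNA. This list overlaps that of the biogenesis factors, with at least Grwd1 in both, so their counts are not separate. Of 12 genes of RNA polymerase I, which makes ribosomal RNA, 8 rose, among them Ubtf (1.17, 9.21e-06).

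Of 17 other mRNAs known for a pyrimidine start, mostly of the translation machinery, 0 rose and 3 fell, and with array-median centring 0 fell. Among all genes 19.6% rose and 29.8% fell, so 3 falls of 17 do not exceed the share of all genes. The 3 were Eif3f (-0.32, adjusted p = 0.0104), Eif3h (-0.28, 0.0064) and Tpt1 (-0.24, 0.0227). Of 78 mitochondrial ribosomal proteins 22 rose and 15 fell, or 30 and 3 with array-median centring. Of 21 regulators of growth 8 rose and 2 fell, the risers including Larp1 (1.03, 5.2e-06), the binder of pyrimidine starts, Rheb, which activates mTOR (0.84, 1.55e-05), and Myc (1.30, 1.6e-05). In EAAE, Grwd1 was the single gene of these lists to rise (0.46, adjusted p = 0.0359, lost in 15 of 26 alternatives). At an unadjusted p under 0.05 by limma 24 biogenesis factors were higher and 2 lower (28.6%), against 16.0% of all genes. The response of 62 of the 91 biogenesis factors was lower in EAAE than in WT and of 1 higher. Among the members this test gave 1 lower and 14 higher of 83, where 15.0% of all genes were lower and 22.2% higher. With array-median centring it gave 1 lower and 0 higher among the members. Among the biogenesis factors that centring gave 63 lower and 1 higher.

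**Figure D5:**
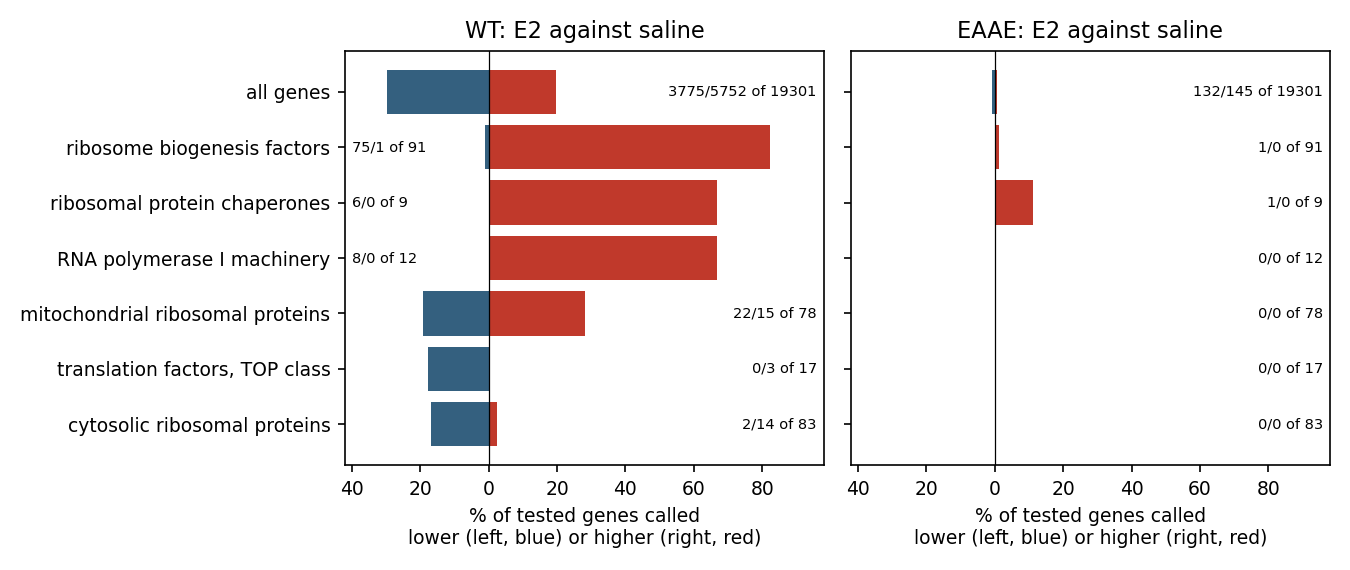
Percent of each gene list called higher or lower after E2 in WT and in EAAE uterus, with all 19301 genes for reference. In WT 75 of 91 biogenesis factors rise, against 2 of 83 ribosomal proteins, and in EAAE nearly no gene of these lists is called.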

How the data were processed

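Total RNA of 12 uteri (500 ng each, labelled with Cy3) was hybridised to 1-colour Agilent arrays annotated on mm7. Agilent Feature Extraction 9.5 wrote the deposited intensity values, per the file headers. The authors' deposited series table holds the same values, and was used as an alternative. Control spots and flagged outliers were left out, the processed intensity was divided by the 75th percentile of its array, and log2 was taken. Spots of a probe were averaged. Probes were kept if some group had them well above background on each of its arrays (29017), and the probe with the highest mean over 12 arrays stood for each of 19301 genes. limma 3.58.1 (R 4.3.3) fitted the 4 groups jointly, tested 5 contrasts by empirical Bayes moderation and adjusted p-values by Benjamini-Hochberg over all genes, with 0.05 as the threshold. Its recovery of known changes was tested on simulated data with independent noise and changes larger than most member differences. That test therefore does not show how well differences as small as those of the members are recovered. A fold bound sets the brighter group's mean against the detection floor of the other. Gene names were updated through RefSeq (GRCm38.p6), which also gave the start sequences.

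The genes named were the members with the lowest p in each comparison, up to 6 in each direction or 3 where none was called, together with Rps6, the paralogs, the stalk, 5S and reference lists, members with probes called in opposite directions, up to 3 genes of each wider list, Esr1, and the genes most and least like the median profile. Further members, the second probes among them, were named after their values were seen. The members and lists were chosen with earlier results of these data known. Alternatives were the scaling, background and filter, the rule for several probes, slide, position and replicate number as terms, the groups fitted and each array left out. Each of the 3 mice per group was a separate animal. A few results are not reported here.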

Additional observations from a re-analysis of the deposited data

Results flagged for a closer look

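The response to E2 differed between the genotypes, by the interaction test in limma, for 15 ribosomal protein genes, 18.1% of the 83 tested against 37.3% of all genes. As EAAE minus WT on the log2 scale the differences were -0.945 for Rpl7l1, 0.411 for Rpl17, 0.429 for Rpl32, 0.357 for Rpl19 and 0.335 for Rpl9. They were 0.446 for Rpl34, 0.409 for Rpl22, 0.353 for Rps15a, 0.443 for Rps10 and 0.51 for Rpl13a. They were 0.417 for Rpl36a, 0.467 for Rpl35, 0.41 for Rpl26, 0.443 for Rps25 and 0.412 for Rps21. Rpl7l1 had the opposite sign to the other 14, and with array-median centring it was the single one still called.

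The same test picked out 10 probes that were not the brightest of their gene. Their differences were -1.404 for Rpl13, -1.217 for Rpl11, -0.939 for Rpl27a, -1.622 for Rps12, -0.77 and -0.716 for Rps24, -1.162 for Rps18, -1.384 for Rpl35a, -1.033 for Rps13 and -0.881 for Rps15a. The Rpl35a value rests on a probe above background on no EAAE E2 array and on 1 array of each saline group. All 10 were above 0 in WT and had a lower response in EAAE. They are the second probes described above, which rose in WT while the brightest probe of the gene did not. Their sign and their contrast with the brightest probes therefore follow largely from that choice.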

How the results depend on the processing

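Alternatives by gene numbered 26 for each comparison and 25 for the difference in response. An empirical Bayes fit with a mean-variance trend, and the alternatives by kind of probe, were added after seeing the data. Of 519 alternative values of counts and medians 437 stayed within the limits set, and 82 moved. Some values could not move, here and for the named genes, so these tallies do not measure stability. The series table holds the same values, and leaving out an array of a group not compared leaves a difference as it was. Of 6874 alternative values for named genes 6489 kept direction and call, 307 lost the call, 68 gained it and 10 turned sign. All 10 turned when the probes of a gene were averaged, which mixes second probes with the brightest. In WT after E2 they gave Rps15a 0.213, Rpl11 0.664 and Rps24 0.504. In the difference in response they gave Rpl11 -0.544 and Rps24 -0.394. Hnrnpa1 gave 0.018 in the saline comparison of genotypes, and Rpl11 -0.463, Rps18 -0.315, Esr1 -0.028 and Rps24 -0.614 in that after E2.

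In WT after E2 the count of members higher became 1 under quantile normalization, 8 with probes averaged and 13 over every probe. The count lower became 0 with array-median centring (median -0.042), 7 without the filter on dim probes, 22 over every probe, 7 with the slide as a block, 2 with slide and position and 23 with the trend. With single arrays left out it was 2 to 17, and the count higher 1 to 2. In EAAE after E2 the counts were 0 throughout.

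For the difference in response the count higher became 0 with array-median centring (median 0.179), 8 under quantile normalization (median 0.113), 2 without the filter, 22 over every probe, 4 with the slide, 2 with slide and position and 27 with the trend. The count lower became 6 with probes averaged and 12 over every probe. With single arrays left out the count higher was 1 to 22.

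In the saline comparison of genotypes the count lower became 16 over every probe, 5 with the slide and 0 with slide and position, where the count higher was 1. With single arrays left out it was 4 to 12, and the count higher 1 to 2. After E2 the count higher became 2 with array-median centring, 10 without the filter, 29 over every probe, 10 with the slide, 1 with slide and position and 12 with only the groups compared. The count lower became 13 with probes averaged, 19 over every probe and 1 with slide and position. The median became 0.053 under quantile normalization and 0.056 with slide and position. With single arrays left out the count higher was 7 to 29.

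For cDNA or EST probes the count lower in WT after E2 became 1 under quantile normalization. The single probe higher in EAAE than WT after E2 was lost (0 higher) with array-median centring, normexp background, no filter, the slide, slide and position and the replicate block, and the count was 0 to 1 with single arrays left out.

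Deviations of arrays with the same replicate number correlated between -0.282 and 0.274 (median 0.03), and those with different numbers had a median of 0.018. This gave no sign of a pairing by number, but 3 arrays per group cannot exclude one. Arrays of different groups on the same slide correlated at a median of 0.122, and those on different slides at -0.017. With the replicate number as a block 2 members were higher and 10 lower in WT after E2, 8 and 1 in the difference in response, 2 and 5 in the saline comparison and 14 and 4 after E2. The same block gave 0 and 0 in EAAE after E2. The cause of these shifts was not tested, apart from fewer arrays or a changed set of probes where the alternative itself makes them. Groups of 3 arrays, 1 dose and 1 time point limit what small differences can be seen.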
